A study of Mus musculus with 12 samples.

Results

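The NMDA receptor genes are the 7 mouse genes *Grin1*, *Grin2a*, *Grin2b*, *Grin2c*, *Grin2d*, *Grin3a* and *Grin3b*. They were chosen by name, as the genes of the receptor's subunits, out of 55413 annotated genes, and H4K12ac peaks were collected within 2 kb of their transcription start sites (TSSs) and in their gene bodies. H4K12ac, the acetylation of histone H4 at lysine 12, was measured by ChIP-Seq in neuronal nuclei that were sorted by FACS from the whole hippocampus. The acetyltransferase TIP60 (KAT5) is one of the enzymes that acetylate histone H4, and the comparison asks how H4K12ac at these genes differed once it was deleted. Libraries came from 5 *Tip60* cKO and 5 control mice.

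*Tip60* cKO mice were homozygous for a floxed *Tip60* allele and carried the tamoxifen-inducible *CaMKCreERT2* driver, a *Camk2a*-Cre/ERT2 transgene. Control mice were homozygous for the same allele and had no driver. Both groups received tamoxifen on 5 days at an age of 8 to 10 weeks and were used at day 10 after the last injection, and the labels give an age of 3 months. The labels name male C57BL/6J mice, whereas the methods of the study name a C57BL/6N background and animals of either sex. The driver deletes *Tip60* in excitatory forebrain neurons only, while the sort kept all neuronal nuclei, so the *Tip60* cKO libraries also hold nuclei of neurons in which no deletion is expected. Recombination itself cannot be read from the peak lists. Input chromatin was pooled into 1 library for each genotype, against which the peaks of that genotype were called.

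NMDA receptors are glutamate-gated cation channels of excitatory synapses that pass calcium and are needed for forms of synaptic plasticity that underlie learning in the hippocampus. Each receptor contains the obligatory GluN1 subunit, encoded by *Grin1*, which binds the co-agonist glycine or D-serine. GluN1 assembles with glutamate-binding GluN2 subunits, encoded by *Grin2a* to *Grin2d*, or with glycine-binding GluN3 subunits, encoded by *Grin3a* and *Grin3b*. *Grin2a* and *Grin2b* encode the main GluN2 subunits of hippocampal principal neurons, *Grin2c* is best known from cerebellar granule cells and *Grin2d* from interneurons and the brainstem.

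The 10 libraries entered peak calling with 22864189 to 37923809 tags and gave 64245 to 136409 peaks. The shortest list was that of *Tip60* cKO replicate 5. TSS peaks were found at 5 to 6 of 6 markers of excitatory neurons in each library, and at 0 to 1 of 6 markers of inhibitory neurons, with *Gad1*, *Sst* and *Vip* free of peaks in all lists, *Pvalb* with one in 3 control lists and no *Tip60* cKO list, and *Slc32a1* and *Gad2* with one in 2 and 1 *Tip60* cKO lists only. Of the glial markers, *Aqp4* and *Aldh1l1* of astrocytes and *Cx3cr1*, *Aif1*, *Csf1r* and *Tmem119* of microglia had no TSS peak in any list, and *Mbp* was the only marker of the oligodendrocyte lineage with one. Other glial markers had TSS peaks, *Gfap* in 9 lists, *Slc1a3* and *Gja1* in 3 each, and *P2ry12* of microglia in 4 control lists and 1 *Tip60* cKO list. Each library held 1 to 3 of 5 astrocyte markers in control and 1 to 2 in *Tip60* cKO. The TSS coverage of *Gfap*, the share of the 4 kb window around its TSS that peaks occupied, was 19.6 ± 4.87% in control and 4.60 ± 3.36% in *Tip60* cKO (SD, n = 5), without overlap (limma, adjusted p = 0.0287). With the replicate number as a block, 0 genes were called in TSS coverage, *Gfap* included. The same held in lane 8 alone, which had 2 libraries per genotype. By exact permutation no gene could be called after adjustment, as too few reached its smallest possible p of 0.00794, so that test does not bear on *Gfap*. Summed TSS rank scores, explained below for *Grin1*, were 65.7 to 219 and 68.3 to 142 for astrocytes and 0 to 78.2 and 0 to 72.5 for microglia. Endothelial markers had a TSS peak at 0 to 1 of 4 genes in control and at 1 to 2 of 4 in *Tip60* cKO libraries, and their summed rank scores were 0 to 74.7 and 71.4 to 151. The part of these markers in the results below was not tested. In such bulk libraries, fewer cells that carry the mark and less of the mark in each cell cannot be told apart.

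H4K12ac marked the start sites of the NMDA receptor genes unequally. A peak lay within 2 kb of the TSS in all 10 lists at *Grin1*, *Grin2a*, *Grin2b* and *Grin3a*, in 9 lists at *Grin3b*, in 5 lists at *Grin2c* and in 1 list at *Grin2d*. Promoter sequences from RefSeq (GRCm38.p6, 250 bases before to 50 after the RefSeq start) were matched for 4 of the 7 genes, *Grin1*, *Grin2c*, *Grin2d* and *Grin3b*. They are shown because the start sites of these genes differed in how many lists had a peak, and the *Grin2d* promoter because its RefSeq start lies apart from the GENCODE 5′ end to which its count of 1 list belongs. Capitals mark the GC box GGGCGG, the E-box CACGTG and the TATA box TATAAA, and the cAMP response element TGACGTCA was also searched, each on both strands.
Grin1 promoter, chr2:25319138-25319437, minus strand: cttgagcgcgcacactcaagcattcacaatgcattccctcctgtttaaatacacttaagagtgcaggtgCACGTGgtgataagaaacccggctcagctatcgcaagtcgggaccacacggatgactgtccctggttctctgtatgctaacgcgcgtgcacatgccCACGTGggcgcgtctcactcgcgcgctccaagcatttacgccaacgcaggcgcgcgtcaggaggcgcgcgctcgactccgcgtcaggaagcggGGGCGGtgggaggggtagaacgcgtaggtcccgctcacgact
Grin2c promoter, chr11:115267194-115267493, minus strand: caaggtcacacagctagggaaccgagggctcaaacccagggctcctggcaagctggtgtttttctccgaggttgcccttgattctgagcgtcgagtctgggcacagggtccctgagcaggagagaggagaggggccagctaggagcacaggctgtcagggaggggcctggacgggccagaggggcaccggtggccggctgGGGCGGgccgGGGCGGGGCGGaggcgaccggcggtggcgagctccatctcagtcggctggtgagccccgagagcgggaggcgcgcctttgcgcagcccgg
Grin2d promoter, chr7:45866632-45866931, minus strand: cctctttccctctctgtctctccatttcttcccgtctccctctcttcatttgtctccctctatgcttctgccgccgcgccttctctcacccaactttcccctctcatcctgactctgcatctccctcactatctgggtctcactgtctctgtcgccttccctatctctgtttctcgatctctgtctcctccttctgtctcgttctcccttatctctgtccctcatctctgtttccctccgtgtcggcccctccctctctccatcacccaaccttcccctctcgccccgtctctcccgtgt
Grin3b promoter, chr10:79970474-79970773, plus strand: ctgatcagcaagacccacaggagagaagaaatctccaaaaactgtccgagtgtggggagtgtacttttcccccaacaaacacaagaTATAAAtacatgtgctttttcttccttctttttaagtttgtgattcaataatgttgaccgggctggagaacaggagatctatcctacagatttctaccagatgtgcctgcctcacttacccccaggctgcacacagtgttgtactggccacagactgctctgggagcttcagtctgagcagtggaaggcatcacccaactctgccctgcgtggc

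The *Grin1* promoter held 33 CpG dinucleotides, more than 91.4% of the 32851 RefSeq promoters of this length, whose median was 7. It also held 1 GC box and 2 E-boxes. The *Grin2c* promoter held 22 CpG dinucleotides and 3 GC boxes, at a GC content of 70%. The *Grin2d* promoter held 12 CpG dinucleotides and none of the 4 motifs, and that of *Grin3b* held 3 CpG dinucleotides and 1 TATA box. Of all promoters 35.7% held a GC box, 7.15% an E-box, 13.6% a TATA box and 1.79% the cAMP response element. The *Grin3b* promoter, with the fewest CpG dinucleotides of the 4, had a TSS peak in 9 lists and the *Grin2c* promoter in 5, so the order by CpG number was not the order by number of lists with a peak.

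*Grin1* lies on the minus strand at chr2:25291181-25319187 and spans 28 kb. The TSS rank score used here places the best peak of a gene's 4 kb TSS window, by fold enrichment, among the windows of all annotated genes of the same library, from 0 for no peak to 100. As a rank within 1 library, it cannot show a loss of H4K12ac that all windows share. The study reported lower H4K12ac staining in TIP60-deficient CA1 nuclei, and similar scores in both genotypes do not mean that the amount of the mark was unchanged. The score of *Grin1* was 88.5, 93.3, 90.8, 83.3 and 93.2 in control replicates 1 to 5, and 92.6, 95.5, 93.0, 95.9 and 90.5 in *Tip60* cKO replicates 1 to 5. The genotypes overlapped, and the lowest value was that of control replicate 4. Means were 89.8 ± 4.12 in control and 93.5 ± 2.22 in *Tip60* cKO (SD, n = 5), a difference of 3.67 with a standard error of 2.36 that did not pass the threshold (limma, adjusted p = 0.562). The peak was 622 to 1012 bp long, with a fold enrichment of 5.27 to 7.39, and its summit lay 239 to 574 bp downstream of the TSS in all 10 lists.

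*Grin2a*, at chr16:9567898-9995560 on the minus strand, had the strongest TSS peak of the family. Its TSS rank score was 97.5, 98.5, 99.5, 98.3 and 99.9 in control and 98.9, 99.7, 98.0, 98.3 and 96.8 in *Tip60* cKO replicates 1 to 5. All 10 libraries thus placed it among the highest windows of the genome, with a difference between the genotypes of -0.39 (limma, adjusted p = 0.956). Scores this close to 100 leave little room for a difference. Fold enrichment at this peak was 8.79 to 11.1 in control and 6.90 to 9.26 in *Tip60* cKO, with means of 9.90 ± 1.06 and 8.32 ± 0.933 (SD, n = 5). As log2 of fold enrichment over the median of the library's peaks, with a pseudocount of 1, the difference was -0.20. It did not pass (limma, unadjusted p = 0.0767, adjusted p = 0.323). *Grin2b*, at chr6:135713233-136173511 on the minus strand, scored 90.5, 93.3, 95.1, 92.1 and 92.3 in control and 97.3, 97.6, 97.1, 93.7 and 89.4 in *Tip60* cKO. Replicates 1 to 3 of *Tip60* cKO lay above every control library, while replicate 5 lay below every control library. The difference of 2.34 ± 2.1 (limma SE) did not pass (adjusted p = 0.666). The 4 kb window of *Grin2b* also contains the TSS of the antisense gene *Gm26653*, so that a peak there cannot be assigned to 1 of both genes.

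*Grin2c*, at chr11:115249169-115267243 on the minus strand, had a TSS peak in 2 control and 3 *Tip60* cKO lists, with scores of 70.3 and 72.4 in control replicates 1 and 3 and of 68.1, 69.6 and 79.1 in *Tip60* cKO replicates 1, 3 and 4. Where present, the peak had a fold enrichment of 3.07 to 4.47, lower than any TSS peak of *Grin1*. The difference of 14.8 ± 23.4 (limma SE) came from presence or absence of this weak peak and did not pass (limma, adjusted p = 0.807). It was 1.35 with equal numbers of peaks per library, -1.66 in lane 7 alone, and 5.89 to 25.8 with single libraries left out.

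*Grin2d* is annotated in GENCODE at chr7:45831883-45878378 on the minus strand, and within 2 kb of this 5′ end only control replicate 5 had a peak, with a score of 68.2. With a peak in 1 list the gene was not tested. This 5′ end belongs to a transcript that runs across *Kdelr1*, and other protein-coding transcripts of *Grin2d* start up to 11249 bp further downstream. The RefSeq start of *Grin2d*, at position 45866681, lay inside the region chr7:45865777-45866976, which had a peak in all 10 lists. The region rank score, which places the best peak of a region among all regions of the library from 0 to 100, was 94.4 ± 3.09 there in control and 96.8 ± 1.68 in *Tip60* cKO (SD, n = 5). These means differed by 2.42 (limma, adjusted p = 0.931). This region lay outside the window of the GENCODE 5′ end. With the starts of all transcripts included its TSS rank score differed by 5.24 between the genotypes (limma, adjusted p = 0.501).

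*Grin3a*, at chr4:49661611-49845744 on the minus strand, scored 86.7, 75.1, 84.8, 73.5 and 82.1 in control and 80.7, 87.5, 79.9, 80.9 and 87.2 in *Tip60* cKO replicates 1 to 5. The ranges overlapped, and the difference of 2.78 ± 3.2 (limma SE) did not pass (limma, adjusted p = 0.761). *Grin3b*, at chr10:79970715-79977190 on the plus strand, scored 76.2, 76.5, 70.9, 70.2 and 81.2 in control and 0, 72.5, 73.6, 75.5 and 79.6 in *Tip60* cKO. The 4 *Tip60* cKO libraries with a peak lay within the range of the controls. The difference of -14.8 ± 14.3 (limma SE, adjusted p = 0.697) rested on *Tip60* cKO replicate 1, without which it was 0.31.

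**Figure D1:**
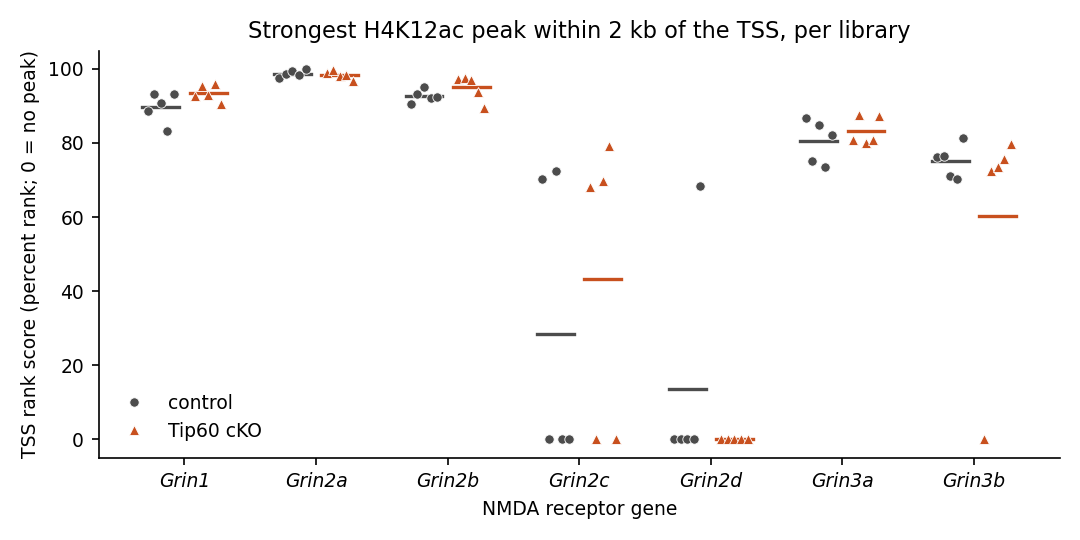
TSS rank score (vertical axis, percent rank among all genes, 0 for no peak) of the 7 genes in 5 control (circles) and 5 *Tip60* cKO libraries (triangles), with horizontal lines at the means. *Grin2a* stays between 96.8 and 99.9 in all libraries, the genotypes overlap at every gene, and the points at 0 show the libraries without a peak at *Grin2c*, *Grin2d* and *Grin3b*.

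Across all 21672 genes that had a TSS peak in 2 or more lists, limma called 0.235% in TSS rank score at an adjusted p below 0.05, 11.8% had an unadjusted p below 0.05, and 3.55% had genotypes that did not overlap. Of the 6 NMDA receptor genes tested, 0 were called by limma, 0 had an unadjusted p below 0.05 and 0 had genotypes that did not overlap. The exact permutation test over the 10 mice (two-sided) gave p-values from 0.143 to 0.683 for these 6 genes. Its smallest possible p is 0.00794. The score was higher in *Tip60* cKO at 4 of the 6 genes, with a median difference of 2.56, while it was lower at 55.6% of all genes tested, with a median of -0.69. This direction depended on the scale. As log2 of fold enrichment over the median of the library's peaks, the differences at *Grin1*, *Grin2b* and *Grin3a* were -0.023, -0.042 and -0.039, which leaves 1 of the 6 higher. Ranked by pileup, the differences at these 3 genes were 1.15, -1.15 and 3.55.

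By the control means, the order of the TSS rank scores was *Grin2a*, *Grin2b*, *Grin1*, *Grin3a*, *Grin3b*, *Grin2c* and *Grin2d*. The place of *Grin2d* holds for the window of its GENCODE 5′ end only. *Grin2a* stood above *Grin2b*, and *Grin1* above *Grin3a*, in 10 of 10 libraries. *Grin2b* stood above *Grin1* in 7 libraries and *Grin3a* above *Grin3b* in 9, and the ranges of both pairs overlapped within the controls. Over the 10 libraries and 21937 protein-coding genes, the scores most like those of *Grin1* were those of *Xrcc4* and *Tmem167*, which share a start region, with a mean absolute difference of 1.72, and of *Gmeb2* with 1.87. Closest to *Grin2c* were *Grm8* with 0.91, *Fndc9* with 1.40 and *Myl3* with 1.81.

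TSS coverage, the share of the 4 kb window occupied by peaks, measures how wide the mark was. At *Grin2a* it was 58.3, 56.1, 54.0, 53.8 and 55.9% in control and 57.4, 53.9, 64.7, 48.4 and 42.7% in *Tip60* cKO replicates 1 to 5. At *Grin2b* it was 53.8, 57.9, 58.4, 38.6 and 60.5% in control and 50.1, 40.7, 73.8, 33.9 and 30.1% in *Tip60* cKO. Both genes thus had more of the window in peaks in *Tip60* cKO replicate 3 than in any control library, and the least in *Tip60* cKO replicate 5. *Grin1* was covered at 25.8 to 32.2% in control and 15.8 to 54.3% in *Tip60* cKO, and *Grin3a* at 15.8 to 45.0% and 17.6 to 29%.

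The differences in TSS coverage were -0.17 percentage points at *Grin1*, -2.23 at *Grin2a*, -8.12 at *Grin2b*, -6.73 at *Grin3a*, 2.69 at *Grin2c* and 2.79 at *Grin3b*. All of them lay within the spread between mice, and limma gave adjusted p-values of 0.992, 0.741, 0.533, 0.401, 0.70 and 0.745. Of all genes tested, limma called 1.56% in TSS coverage, 23.2% had an unadjusted p below 0.05 and genotypes did not overlap at 5.38%. The median difference was -4.01 percentage points, so that windows were in general less covered in *Tip60* cKO. TSS coverage moves with the length of the list, and all peaks of a list covered 56.4 ± 10.7 Mb in control and 43.8 ± 14.0 Mb in *Tip60* cKO (SD, n = 5). The part of list length in the lower coverage was not tested. Among the NMDA receptor genes 0 of 6 were called by limma, 0 had an unadjusted p below 0.05 and 0 had genotypes that did not overlap, and the exact permutation test gave 0.222 or more for each. The median of the 6 genes was -1.20 percentage points.

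The gene bodies, from 2 kb after the TSS to the gene's end, of *Grin1*, *Grin2a*, *Grin2b*, *Grin2c* and *Grin2d* carried more peaks per list on average than their TSS windows, and those of *Grin3a* in control and *Grin3b* in both genotypes carried fewer. *Grin2a* had 25 to 165 body peaks per list, *Grin2b* 54 to 217 and *Grin1* 6 to 17, while *Grin3a* had at most 4 and *Grin3b* at most 1. Body coverage of *Grin1* was 25.4, 21.1, 16.4, 15.1 and 19.4% in control and 27.8, 22.2, 30.3, 20.1 and 10.3% in *Tip60* cKO replicates 1 to 5. *Grin2b* ranged from 5.08 to 15.7% in control and from 3.27 to 19.2% in *Tip60* cKO, and *Grin2a* from 4.05 to 13.4% and from 1.73 to 14.5%. *Grin2d* was covered at 10.8 to 14.0% and 6.73 to 15.4%, and *Grin2c* at 2.69 to 6.10% and 1.94 to 7.58%. *Grin3a* was covered at 0 to 0.119% and 0 to 0.679%, and *Grin3b* at 0 to 4.60% and 0 to 2.01%. The genotypes overlapped at every gene, and the lowest value of *Grin1*, *Grin2a*, *Grin2b* and *Grin2d* was that of *Tip60* cKO replicate 5, the shortest list.

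Of 12823 gene bodies tested, limma called 0.351%, 15.7% had an unadjusted p below 0.05, and the genotypes did not overlap in 4.01%. Of the 7 NMDA receptor genes 0 were called, 0 had an unadjusted p below 0.05, and the exact permutation test gave 0.0873 or more for each. As body coverage moved with the length of the list, from 1.10 to 3.56% over all gene bodies of a library, it was also divided by that percentage, a choice made after seeing the data. Relative to all gene bodies, *Grin1* was covered 7.99, 5.94, 5.95, 7.74 and 5.59 times as much in control and 8.39, 9.71, 10.2, 9.28 and 9.35 times as much in *Tip60* cKO. Every *Tip60* cKO library stood above every control library, with means of 6.64 ± 1.13 and 9.38 ± 0.663 (SD, n = 5), an unadjusted limma p of 0.000809 and an exact permutation p of 0.00794. Adjusted over all gene bodies the limma p was 0.0576, which did not pass. On this scale 4.49% of gene bodies had genotypes that did not overlap, 1.64% with *Tip60* cKO higher, 15.1% had an unadjusted p below 0.05, and limma called 0.998%. *Grin2b* had 3.61 ± 0.997 and 4.56 ± 1.48, *Grin2a* 3.07 ± 0.837 and 2.97 ± 1.40, and *Grin2d* 4.27 ± 1.15 and 5.30 ± 0.771, with overlapping genotypes.

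**Figure D2:**
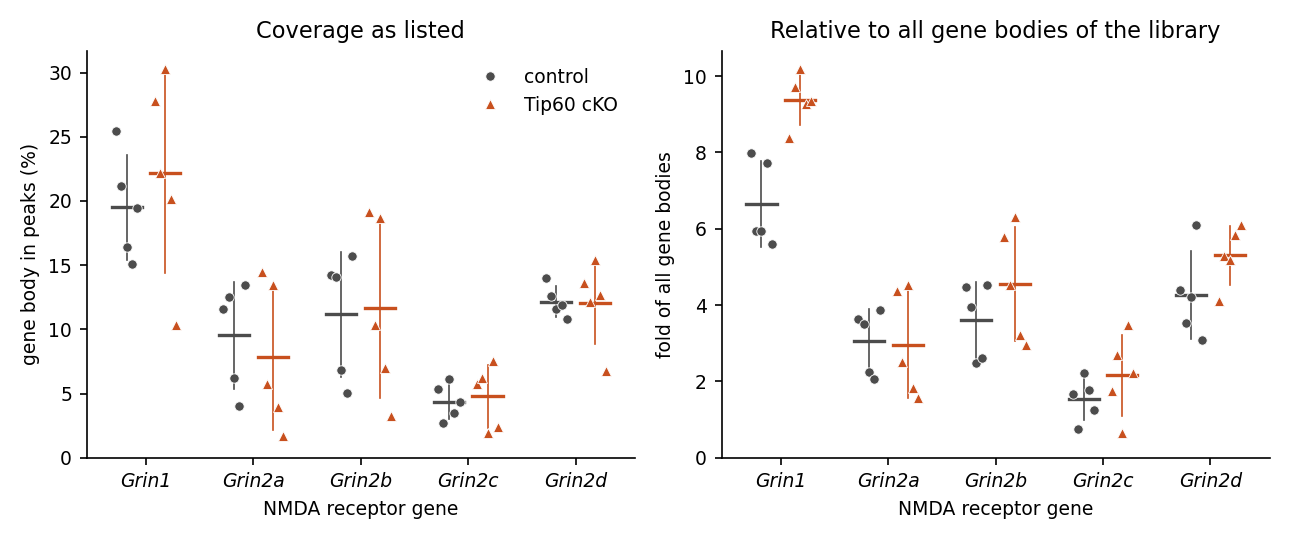
Percent of the gene body in peaks (left axis panel) and the same divided by the percentage over all gene bodies of the library (right panel, fold) for 5 genes in control (circles) and *Tip60* cKO libraries (triangles), with the mean as a horizontal and the SD as a vertical line, n = 5. The genotypes overlap at all 5 genes in the left panel, and in the right panel they separate at *Grin1*, with 5.59 to 7.99 in control and 8.39 to 10.2 in *Tip60* cKO.

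The mark was not spread evenly along the genes. Along *Grin1*, bases in peaks were most frequent from 75 to 100% of its length, with 53.0 ± 8.63% in control and 49.6 ± 15.2% in *Tip60* cKO (SD, n = 5). The greater part of this stretch lies in a broad region at chr2:25284793-25296535, with a rank score of 97.1 ± 0.876 in control and 96.0 ± 1.18 in *Tip60* cKO, which runs past the 3′ end of *Grin1* to the neighbouring genes *Tmem210*, *Lrrc26* and *Anapc2*. From 25 to 50% of the length of *Grin1*, 11 ± 3.86% lay in peaks in control and 17.9 ± 5.07% in *Tip60* cKO. *Grin2a* was covered about equally from 25 to 50% and from 50 to 75% of its length in control, with 13.0 ± 5.72% and 13.1 ± 5.12%. In *Tip60* cKO these parts had 9.66 ± 6.81% and 12.1 ± 9.23%. *Grin2b* had 3.37 ± 1.23% in its first 25% in control. From 50 to 75% it had 19.4 ± 7.84% in control and 19.8 ± 10.7% in *Tip60* cKO, and from 75 to 100% 19.0 ± 8.36% and 16.1 ± 10.2%.

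**Figure D3:**
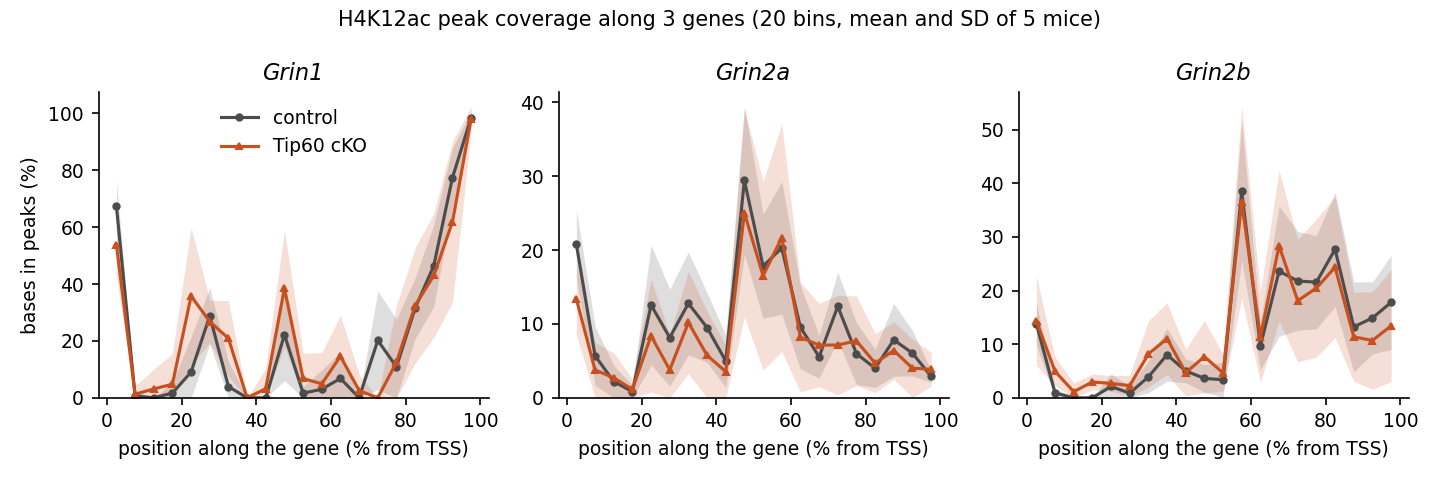
Percent of bases in peaks (vertical axis) in 20 equal bins along *Grin1*, *Grin2a* and *Grin2b* from TSS to gene end (horizontal axis, percent of gene length), as mean (lines) and SD (shading) of 5 control and 5 *Tip60* cKO mice. The last bin of *Grin1* is covered at 98.5% in control, and the highest bins of *Grin2a* (29.4%) and *Grin2b* (38.5%) lie near the middle of the gene, where the bands of both genotypes overlap.

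To ask which single peaks differed, the peaks of all lists were merged into 144701 regions that were found in 2 or more lists. The NMDA receptor genes held 378 of them, 176 in *Grin2b*, 171 in *Grin2a*, 12 in *Grin1*, 11 in *Grin2d*, 3 in *Grin2c*, 3 in *Grin3a* and 2 in *Grin3b*. A peak was found in all 10 lists at 29 of the 378. Of all regions limma called 0.561%, 0.475% with the lower score in *Tip60* cKO. An unadjusted p below 0.05 was found for 12.0% of all regions, 8.34% lower and 3.68% higher in *Tip60* cKO, and in 2.12% the genotypes did not overlap, 1.34% lower and 0.783% higher. Of the 378 regions 1 was called, which was lower, 43 (11.4%) had an unadjusted p below 0.05, 19 lower and 24 higher, and in 6 (1.59%) the genotypes did not overlap, 3 lower and 3 higher. The shares without regard to direction are near those of all regions. Of the 43 regions, 25 had peaks in 1 genotype only and so entered the test through the genotype in which they were high, and their counts are a description. The mean score was lower in *Tip60* cKO in 42.9% of the 378 regions and in 56.9% of all regions, and by gene in 25% of the regions of *Grin1*, 34.7% of those of *Grin2b* and 54.4% of those of *Grin2a*.

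The region that was called lies in intron 5 of *Grin2b* at chr6:135827735-135828559, 345 kb downstream of the TSS (transcript Grin2b-201). Its score was 83.8, 84.6, 60.4, 59.7 and 77.6 in control replicates 1 to 5, and none of the 5 *Tip60* cKO lists had a peak in it. The control peaks were moderate, with a fold enrichment of 2.95 to 4.38, a pileup of 12 to 26 fragments and a −log10 q of 2.15 to 7.39. The mean difference was -73.2 (limma, adjusted p = 0.000581). The region entered the test through control lists alone, and its *Tip60* cKO scores of 0 have no spread, so this p-value is given as a description. It was no longer called with an equal number of peaks per library (-49.2, limma adjusted p = 0.316) or with a robust prior in limma (adjusted p = 0.137). The *Tip60* cKO lists tell only that any signal in this region did not reach the threshold at their depth.

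The 200 bases around the median control summit of this region are shown, followed by those around the median *Tip60* cKO summits of the 2 regions of *Grin1* whose genotypes did not overlap (GRCm38.p6, strand of the gene). Capitals mark a GC box, the only one of the 4 motifs found in these stretches.
Grin2b intron 5, chr6:135827993-135828192, minus strand: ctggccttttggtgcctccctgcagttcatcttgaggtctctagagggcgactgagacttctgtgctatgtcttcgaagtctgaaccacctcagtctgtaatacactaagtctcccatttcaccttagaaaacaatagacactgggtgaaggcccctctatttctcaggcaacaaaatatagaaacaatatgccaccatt
Grin1 region near the exon 7.91 kb downstream of the TSS, chr2:25311019-25311218, minus strand: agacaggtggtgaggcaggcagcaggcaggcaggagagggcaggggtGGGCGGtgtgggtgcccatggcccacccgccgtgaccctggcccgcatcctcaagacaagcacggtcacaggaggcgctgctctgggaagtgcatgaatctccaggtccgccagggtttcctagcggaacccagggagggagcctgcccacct
Grin1 region 13.6 kb downstream of the TSS, chr2:25305245-25305444, minus strand: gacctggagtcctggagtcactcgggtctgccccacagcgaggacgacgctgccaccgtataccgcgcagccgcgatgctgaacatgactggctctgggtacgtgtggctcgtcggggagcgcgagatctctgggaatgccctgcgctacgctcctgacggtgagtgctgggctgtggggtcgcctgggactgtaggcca
The stretch in *Grin2b* had a GC content of 45.5% and 2 CpG dinucleotides. The stretches in *Grin1* had 67.5% and 66.0% GC with 8 and 18 CpG dinucleotides.

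The regions of *Grin1* overlap its exons. At chr2:25310827-25311731 the score was 74.3, 75.3, 75.4, 61.0 and 45.1 in control and 86.8, 84.1, 92.7, 84.2 and 91.3 in *Tip60* cKO replicates 1 to 5. At chr2:25305114-25306009 it was 62.2, 63.8, 0, 73.1 and 58.9 in control and 76.1, 82.3, 97.8, 85.4 and 87.1 in *Tip60* cKO. In both regions each *Tip60* cKO library stood above each control library, with differences of 21.6 and 34.1 and a limma adjusted p of 0.351 in both, which did not pass over all regions. They are shown because they did not overlap, which held for 2 of the 12 regions of *Grin1* (16.7%). Of all regions 2.12% did not overlap, 0.783% with *Tip60* cKO higher. Of the 12 regions of *Grin1*, 5 (41.7%, beside 12.0% of all regions) had an unadjusted limma p below 0.05, of which 2 had peaks in 1 genotype only and so entered the test through it. Beside these 2, chr2:25310140-25310709 had a peak in 1 control and 4 *Tip60* cKO lists and chr2:25312291-25312888 in 0 control and 4 *Tip60* cKO lists, while chr2:25297954-25298783 had one in 4 control lists and no *Tip60* cKO list. The 4 regions that were higher lie between 6.60 and 13.6 kb downstream of the TSS, and the lower one 20.8 kb downstream.

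In *Grin2b*, 20 of 176 regions (11.4%, beside 12.0% of all regions) had an unadjusted limma p below 0.05, 7 of them lower and 13 higher in *Tip60* cKO, and the genotypes did not overlap in 3 (1.70%, beside 2.12%). Without regard to direction, these shares are near those of all regions. By direction they are not, as 8.34% of all regions were lower and 3.68% higher, while in *Grin2b* more were higher. Of the 20 regions, 14 had peaks in 1 genotype only and so entered the test through it, and their counts are a description. Beside the called region, the regions without overlap were chr6:135830728-135831315 in intron 5, with 73.1 ± 0.775 in control and 36.0 ± 33.6 in *Tip60* cKO, and chr6:135859735-135861552 in intron 4, with 42.3 ± 25.6 and 84.3 ± 9.6 (SD, n = 5). The former was lower and the latter higher in *Tip60* cKO, with limma adjusted p-values of 0.351 and 0.187. A region next to the called one, chr6:135829036-135829640, had a peak in 4 control lists and no *Tip60* cKO list. Intron 5 of *Grin2b* also held chr6:135808301-135809003, which showed the reverse, with a peak in 0 control and 4 *Tip60* cKO lists.

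In *Grin2a*, 17 of 171 regions (9.94%) had an unadjusted limma p below 0.05, 11 lower and 6 higher in *Tip60* cKO. Of these 17, 8 had peaks in 1 genotype only and so entered the test through it. The genotypes did not overlap in 1 (0.585%), and both shares are below those of all regions. This region is chr16:9990718-9991339 in intron 3, 4.53 kb downstream of the TSS. Its score was 77.4, 55.1, 60.7, 88.9 and 81.6 in control and 51.2, 0, 50.3, 0 and 0 in *Tip60* cKO replicates 1 to 5 (limma, adjusted p = 0.147). The strongest region of *Grin2a*, at its TSS (chr16:9991713-9996127), had 99.6 ± 0.314 in control and 99.4 ± 0.431 in *Tip60* cKO. In *Grin3a*, the region chr4:49740836-49741733 in intron 3 had a peak in 0 control and 4 *Tip60* cKO lists, and it entered the test through the latter alone.

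The TSS regions of the other genes, and the strongest regions of *Grin2c* and *Grin2d*, overlapped between the genotypes. The TSS region of *Grin1*, chr2:25317970-25319163, had 95.8 ± 2.28 in control and 97.3 ± 1.12 in *Tip60* cKO, and that of *Grin2b*, chr6:136170624-136174005, 97.3 ± 0.715 and 97.9 ± 1.78. At *Grin3a* the TSS region chr4:49844265-49846156 had 87.0 ± 8.04 and 90.0 ± 3.49, and at *Grin3b* chr10:79970624-79971481 had 78.1 ± 9.80 and 61.4 ± 35.0. The strongest region of *Grin2c* was not at its TSS but at its 3′ end, chr11:115249630-115250812, with a peak in all 10 lists and 81.8 ± 12.3 and 79.2 ± 14.5. *Grin2d* likewise had its strongest region at the 3′ end, chr7:45830259-45834526, with 97.1 ± 1.05 and 98.0 ± 0.718, where the start of *Grwd1* lies as well. None of these differences passed (limma, adjusted p of 0.674 or more).

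**Figure D4:**
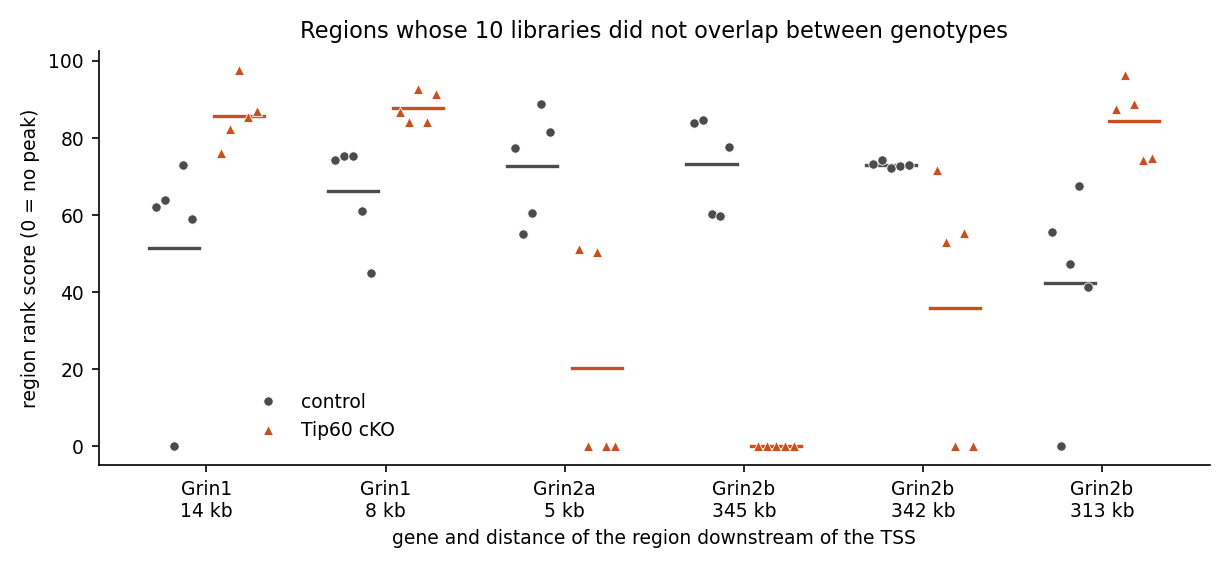
Region rank score (vertical axis, 0 for no peak) of the 6 regions whose libraries did not overlap between control (circles) and *Tip60* cKO (triangles), labelled by gene and rounded distance downstream of the TSS, with lines at the means of 5 mice. The *Grin2b* region with a mean of 73.2 in control has no peak in *Tip60* cKO, and both *Grin1* regions are higher in *Tip60* cKO.

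The background expected by the peak caller differed between the genotypes at some of these genes. It was recovered for each peak from pileup and fold enrichment and expressed relative to the lowest, genome-wide level of the library. At the peaks of *Grin1* it was 1.27, 1.18, 1.26, 1.28 and 1.23 in control and 1.13, 1.05, 1.09, 1.04 and 1.08 in *Tip60* cKO replicates 1 to 5. *Grin2a* had 1.43 ± 0.0288 and 1.25 ± 0.0270 and *Grin2b* 1.42 ± 0.0394 and 1.25 ± 0.0254 (SD, n = 5), again without overlap, whereas the ranges overlapped at the other 4 genes. Over all peaks of a library the mean was 1.20 ± 0.00603 in control and 1.13 ± 0.00268 in *Tip60* cKO.

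A lower background raises the fold enrichment by which peaks were ranked. In the 2 regions of *Grin1* that were higher in *Tip60* cKO, the background was 1.17 in control at the region 13.6 kb downstream of the TSS and 1.13 to 1.47 at the region 7.91 kb downstream, and at most 1.04 in *Tip60* cKO. In the higher region of *Grin2b* at chr6:135859735-135861552 it was 1.71 to 2.49 and 1.0 to 1.21. Whether a peak was listed at all also rests on the background, and a list without a peak scores 0 under any ranking. Ranked by pileup instead of fold enrichment, the difference was 31 in the *Grin1* region 13.6 kb downstream and 16 in that 7.91 kb downstream, and that of the *Grin2b* region fell from 42.0 to 16.5 (limma, unadjusted p = 0.344). Since each genotype had 1 pooled input, a difference between the inputs and a difference between the genotypes cannot be told apart.

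**Figure D5:**
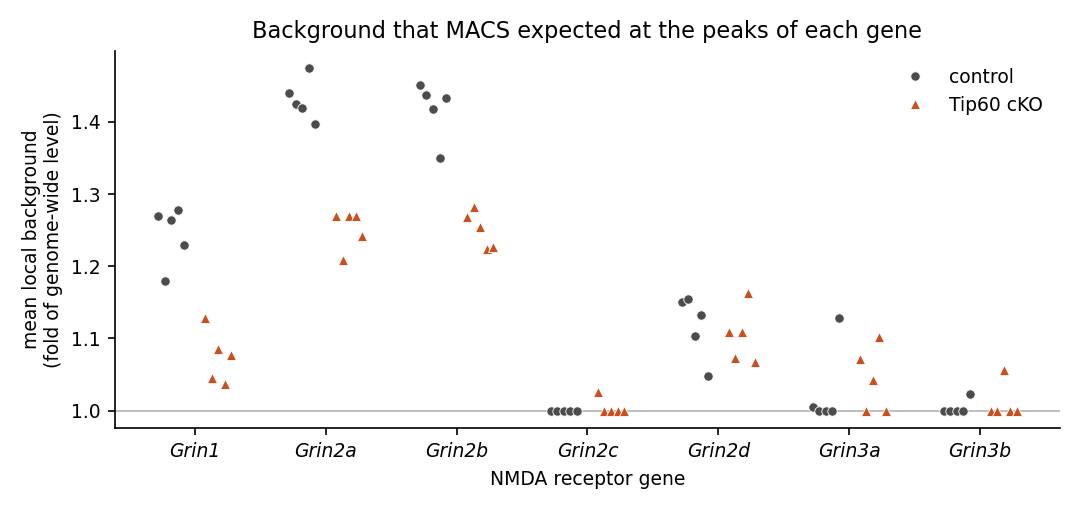
Mean local background at the peaks of each gene (vertical axis, fold of the genome-wide level of the library, grey line at that level) in control (circles) and *Tip60* cKO libraries (triangles). The genotypes do not overlap at *Grin1*, *Grin2a* and *Grin2b*, with control libraries higher, and overlap at the other 4 genes.

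Genes whose products work with the NMDA receptor were scored in the same way. The list of 20 partners holds scaffold proteins, kinases and other signalling proteins of the receptor complex, and enzymes and transporters that set the co-agonists. A TSS peak was present in all 10 lists at 14 of them. Of 19 tested, 10 had a lower and 9 a higher TSS rank score in *Tip60* cKO, with a median of -0.56 beside -0.69 over all genes tested. By limma 0 were called in rank score, 2 had an unadjusted p below 0.05, and the genotypes did not overlap at 1, *Camk2a*. These counts are set against 0.235% called, 11.8% with an unadjusted p below 0.05 and 3.55% without overlap among all genes tested, and 2 and 1 of 19 are near these shares. This gene encodes the alpha subunit of the calcium/calmodulin-dependent kinase that binds GluN2B. It scored 86.6, 84.7, 77.6, 75.9 and 84.1 in control and 87.0, 92.5, 89.7, 88.1 and 88.0 in *Tip60* cKO (limma, adjusted p = 0.344). The driver transgene is named after *Camk2a* and was present in *Tip60* cKO mice only, so peaks from copies of *Camk2a* sequence in the transgene and from the gene itself cannot be told apart.

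In TSS coverage 16 of the 19 partners had a lower mean in *Tip60* cKO, 4 had an unadjusted p below 0.05 and 1 was called by limma, beside 23.2% and 1.56% of all genes tested, of which 17562 were lower. The called gene was *Ptpn5*, which encodes the phosphatase STEP that dephosphorylates GluN2B. Its coverage was 30, 43.8, 50.6, 45.3 and 44.9% in control and 17.8, 30, 18.2, 27.5 and 29% in *Tip60* cKO (limma, adjusted p = 0.0498). It was lower under all 21 alternatives run and called by limma in 6 of them, with adjusted p-values from 0.0324 to 0.421. Its TSS rank score was 84.5 ± 4.31 and 80.8 ± 4.34 (SD, n = 5). The largest differences in rank score were those of *Slc7a10*, a transporter of D-serine, with 17.1, of *Dlg3*, a scaffold, with -14.5, and of *Src*, a tyrosine kinase, with -12.6. *Slc7a10* had a peak in 1 control and 2 *Tip60* cKO lists, and *Dlg3* and *Src* both lacked one in *Tip60* cKO replicate 2. Limma adjusted p-values of the 3 genes were 0.736 to 0.798.

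The genes of the AMPA and kainate receptors, the other ionotropic glutamate receptors, were compared in the same way. Of 8 tested among 9, 4 had a lower and 4 a higher TSS rank score, and limma called 0 of them, with 1 at an unadjusted p below 0.05. The genotypes did not overlap at 2. Over all genes tested the shares were 0.235% called, 11.8% with an unadjusted p below 0.05 and 3.55% without overlap. *Gria2*, which encodes the AMPA receptor subunit that limits calcium entry, had 93.7 ± 1.47 in *Tip60* cKO against 85.5 ± 2.69 in control (SD, n = 5, limma adjusted p = 0.112). *Grik4*, a kainate receptor subunit, had 98.5 ± 0.615 against 99.8 ± 0.169 (limma, adjusted p = 0.708). In TSS coverage 7 of the 8 were lower and 1 higher in *Tip60* cKO, with a median of -9.38 percentage points beside -4.01 over all genes tested. Limma called 0 of the 8 and 2 had an unadjusted p below 0.05, beside 1.56% and 23.2% of all genes tested, of which 17562 were lower. The coverage of *Gria2* and *Grik4* differed by -12.0 and -11.5 percentage points (limma, adjusted p = 0.119 and 0.113).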

How the data were processed

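H4K12ac ChIP-Seq libraries of 5 *Tip60* cKO and 5 control mice were analysed from their peak lists, 1 per mouse. The authors aligned reads to mm10 with STAR, discarded PCR duplicates by samtools and ran MACS 2.1.0.20140616 on each library, with a q threshold of 0.1 and the pooled input of the same genotype as background. Pileup, as deposited, is a coverage signal that counts overlapping fragments at a summit. Fold enrichment, as deposited, is pileup plus 1 as a ratio to the local background plus 1. Significance was deposited as the −log10 of a p-value and a q-value. Reads per region are not listed, so the SDs given describe the spread of scores among 5 mice of a genotype. The limma standard errors and p-values rest on this spread and on a prior variance drawn from all features tested. At features that varied little between mice, such as *Grik4* in TSS rank score (limma SE 1.35), the prior weighs heavily. The study's test of reads with DiffBind was not repeated.

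TSSs and gene bodies were taken from GENCODE M21 on GRCm38, the build of the lists. limma 3.58.1 under R 4.3.3 (lmFit, eBayes) compared scores over all genes or regions found in 2 or more lists, with calls at a Benjamini-Hochberg adjusted p below 0.05. Single genes were also compared by a two-sided exact permutation test (252 assignments of mice), with Python 3.11.15, numpy 2.4.6, pandas 2.3.3, scipy 1.17.1 and matplotlib 3.10.9. The limma step was tested on simulated scores. The lane, 7 for replicates 1 to 3 and 8 for the others, was taken from file names. The inputs entered no test. The members and lists were chosen with earlier results of these data known.

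All 7 genes are named. Of the partners those that were called, those without overlap in rank score and the 3 with the largest difference in rank score are named, and of the regions those without overlap and the strongest of each gene. Regions with an unadjusted p below 0.05 were to be named as well, and beyond *Grin1* and *Grin3a* they are given mostly as counts. Genes alike in TSS rank score are the 3 with the smallest mean absolute difference over the 10 libraries. *Gria2* and *Grik4* are named as the 2 that did not overlap. Alternatives were q below 0.01, equal numbers of peaks, ranking by pileup, windows of 1 kb, all transcript starts, other minimum numbers of lists, lanes, a replicate block, a robust prior and omission of each library. A further alternative was the log2 of fold enrichment over the median of the library's peaks, with a pseudocount of 1 added to this ratio. Coverage relative to all gene bodies and the omission of regions that overlap other genes were added after seeing the data.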

Additional observations from a re-analysis of the deposited data

Results flagged for a closer look

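In 6 of 40 groups of 5 libraries, 1 library stood apart from the other 4 by Dixon's criterion. Its rate of about 1 in 20 groups by chance holds for continuous values and cannot be set against this count, since in 5 of the 6 groups the other 4 values were 0, where any single peak meets the criterion. In TSS rank score, *Grin2d* had 68.2 in control replicate 5 and 0 in the other 4 control libraries, and *Grin3b* had 0 in *Tip60* cKO replicate 1 and 72.5 to 79.6 in the other 4. In TSS coverage, *Grin2d* had 5.32% in control replicate 5 and 0 in the others. In gene body coverage, *Grin3a* had 0.119% and *Grin3b* 4.60% in control replicate 1 and 0 in the other control libraries, and *Grin3b* had 2.01% in *Tip60* cKO replicate 1 and 0 in the other *Tip60* cKO libraries. In each case 1 peak was present in, or absent from, 1 list.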

How the results depend on the processing

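Of the NMDA receptor genes 0 were called by limma in TSS rank score, TSS coverage and gene body coverage under every alternative run, and at most 1 had an unadjusted p below 0.05. The direction of several differences, which were all within the spread between mice, did reverse. In TSS rank score this was the case for *Grin2b* by pileup (-1.15) and in lane 8 (-0.63), for *Grin1* (-0.023), *Grin2b* (-0.042) and *Grin3a* (-0.039) on the log2 scale, for *Grin2a* (0.38) and *Grin2c* (-1.66) in lane 7 and for *Grin3b* in lane 8 (1.88). In TSS coverage, *Grin1* turned higher with q below 0.01 (1.12), equal numbers of peaks (3.71), 1 kb windows (5.76), all transcript starts (1.51) and in lane 7 (5.48), *Grin2a* turned higher with 1 kb windows (3.68) and in lane 7 (2.5), and *Grin3b* turned lower with 1 kb windows (-2.41) and in lane 8 (-2.39), as did *Grin2c* in lane 7 (-0.15). In body coverage, *Grin2d* turned higher with q below 0.01 (0.45), in lane 7 (0.98) and relative to all bodies (1.04), *Grin2a* turned higher in lane 7 (1.14), and *Grin2c* in lane 7 (-0.071), *Grin1* in lane 8 (-2.06) and *Grin2b* in lane 8 (-5.28) turned lower. With equal numbers of peaks, the rank score differences of *Grin2c* and *Grin3b* were 1.35 and -0.73 in place of 14.8 and -14.8. The cause was not tested.

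With single libraries left out, differences ranged from -19.6 to 0.31 for *Grin3b* in rank score, where *Tip60* cKO replicate 1 decided the value, 5.89 to 25.8 for *Grin2c*, 2.04 to 4.53 for *Grin1*, 1.70 to 3.75 for *Grin2b*, -0.73 to -0.0094 for *Grin2a* and 1.05 to 4.33 for *Grin3a*. In TSS coverage they ranged from -6.42 to 3.2 for *Grin1*, -5.04 to 0.45 for *Grin2a* -0.95 to 5.87 for *Grin3b*, 1.02 to 4.84 for *Grin2c*, -15.1 to -4.21 for *Grin2b* and -10.7 to -3.39 for *Grin3a*. The unadjusted limma p was 0.0148 for *Grin2b* without *Tip60* cKO replicate 3 and 0.0132 for *Grin3a* without control replicate 4. In body coverage differences ranged from 0.61 to 5.60 for *Grin1*, -3.31 to -0.12 for *Grin2a*, -1.36 to 2.61 for *Grin2b*, -0.30 to 1.11 for *Grin2c* and -0.90 to 1.27 for *Grin2d*. They were -0.75 to -0.42 for *Grin3b* and 0.27 to 0.44 for *Grin3a*. With the robust prior and no library left out, the unadjusted limma p of *Grin3a* was 0.0298. The number of called regions ranged from 1 to 7, with 7 without *Tip60* cKO replicate 5, 3 without control replicate 3 and 2 without control replicate 1 or *Tip60* cKO replicate 3 or 4. It was 0 with equal numbers of peaks and with the robust prior, 2 with a peak in at least 5 lists, 16 in lane 7 and 21 in lane 8 alone. The *Grin2a* region 4.53 kb downstream of its TSS was called in lane 8 (-85.2).

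Same-numbered mice did not deviate together (correlations of -0.04 to 0.06, with 1 of 5 closest to its own number). This gave no sign that the numbers pair the mice, but it cannot exclude a pairing. With the replicate number as a block, 0 NMDA receptor genes and 1 region were called (limma, adjusted p = 0.0477). Over all features the block moved the calls from 51 to 35 in TSS rank score, from 339 to 0 in TSS coverage, from 45 to 0 in body coverage and from 812 to 261 in regions. Other alternatives gave 0 to 930 calls in rank score, 0 to 734 in TSS coverage, 0 to 128 in body coverage and 317 to 8390 in regions, and single omitted libraries gave 57 to 101, 40 to 1416, 0 to 250 and 929 to 1407.

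Peak lists record no signal below the threshold, and longer lists reach weaker peaks. *Grin2c*, *Grin2d* and *Grin3b* lacked a TSS peak in some lists. How far the length of the list limits each gene was not compared. Region scores of 0 in all mice of 1 genotype have no spread, which the limma prior has to supply. Fold enrichment depends on 1 pooled input per genotype. Rank scores of genes and regions are relative to their library and cannot show a change shared by all of them.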
